A study of Picea abies with 48 samples.

Results

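PaLRP1-like (MA_2299g0010) and PaWIP4-like (MA_29238g0010) are 2 Norway spruce (Picea abies) transcription factor genes that the study put forward, from these same libraries, as candidate hubs of a grafting network. They were taken by their identifiers, as 2 of the 70736 gene models in the table of counts. Both were among the 38436 genes that passed the filter for low counts, PaLRP1-like although it had only 1 to 3 reads per library in intact plants up to day 7. As both were picked by the study on these libraries, their rise after grafting is a description of the same data and not independent evidence for that choice. The files hold no sequence, length or position for either gene, so each gene is compared only with itself across groups.

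The libraries came from scions (the upper part of a graft, 15 libraries), rootstocks (the lower part, 15 libraries) and intact plants (18 libraries) of the wild-type seed source FP-96 Skogsgård. Samples of each kind were taken at days 1, 3, 7, 14 and 28 of graft healing, and of intact plants also at day 0, which makes 16 groups of 3 replicates. All were labelled hypocotyl, the seedling stem below the cotyledons. Every graft was a homograft, in which scion and rootstock came from different spruce seedlings and were held together by a silicon collar, and several plants were pooled in each library. A scion or rootstock piece measured about 1 mm from the junction and an intact piece about 2 mm, so the intact pieces were not matched to a side or to the length of the cut pieces. Grafts and intact plants also grew older over the series, and the intact plants of the same day are the only control for that.

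In Arabidopsis, LATERAL ROOT PRIMORDIUM 1 (LRP1) belongs to the SHORT INTERNODES family of zinc finger proteins, is active in young lateral root primordia and responds to auxin. WIP proteins are C2H2 zinc finger transcription factors, and in Arabidopsis several of them, WIP4 included, act together to set up the root meristem of the embryo. The names of the spruce genes rest on sequence similarity, and the annotation in the study's supplement calls PaWIP4-like a zinc finger protein of the WIP2 type. Joining a cut stem involves cell division, new vascular strands and auxin, and the start of a lateral root involves cell division and auxin.

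Library totals ran from 12850978 to 23256697 counted reads in scions, from 15015857 to 27687377 in rootstocks and from 11511598 to 26780688 in intact plants, and replicates of a group correlated at 0.967 or more. Normalized reads are counts divided by the size factor of the library. Calls, higher or lower, needed an adjusted p under 0.05 in edgeR's quasi-likelihood test (Benjamini–Hochberg over all genes tested) together with the fold threshold, a log2 fold change of more than 1 in size. Errors of fold changes are standard errors (SE) and errors of group means are standard deviations (SD, n = 3). In bulk tissue, more cells of a type and more RNA per cell cannot be told apart.

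Both genes were higher in grafted tissue than in intact plants of the same day in every one of the 10 comparisons at an adjusted p under 0.05 (edgeR), which held for 2.39% of the genes tested. PaLRP1-like also passed the fold threshold in 9 of the 10, as did 1.57% of the genes in at least 9, and PaWIP4-like in 8 of the 10, as did 2.74% in at least 8. The mean log2 fold change over the 10 comparisons was 3.57 for PaLRP1-like and 1.43 for PaWIP4-like. Single comparisons called 11.4%, 9.82%, 10.8% and 11% of the genes higher in scions of days 1, 3, 7 and 14, and 13.8%, 9.56%, 7.55%, 9.31% and 7.27% higher in rootstocks of days 1, 3, 7, 14 and 28. All 3 grafted libraries lay above all 3 intact ones in 9 comparisons for PaLRP1-like and in 10 for PaWIP4-like. That held for 28.7%, 26.5%, 27%, 28.3% and 24.5% of the genes in scions of the 5 days, and for 31.2%, 26.2%, 20.9%, 25.1% and 21% in rootstocks. The scion and rootstock comparisons of a day share their 3 intact libraries.

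**Figure D1:**
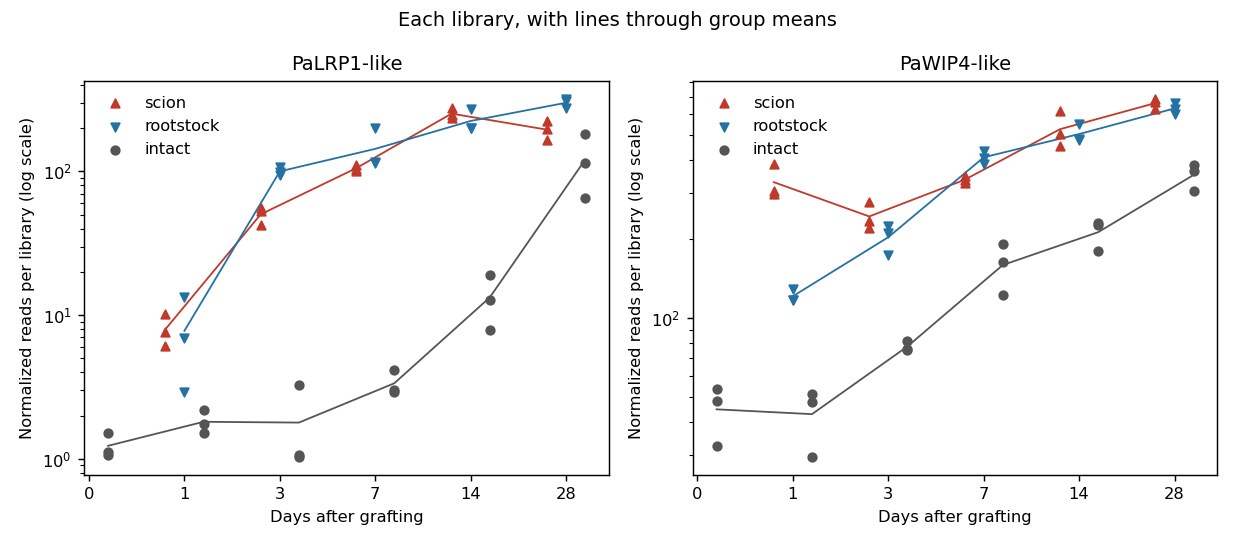
Normalized reads of PaLRP1-like (left) and PaWIP4-like (right) in each of the 48 libraries, on a log scale, against days after grafting, with points slightly offset by tissue. Lines join the group means of scions (red), rootstocks (blue) and intact plants (grey); PaLRP1-like stayed at or below 4.14 normalized reads in intact plants up to day 7, when the grafted libraries had at least 101.3, and the 3 PaWIP4-like scion libraries of day 1 lay between 297 and 388.

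PaLRP1-like was nearly silent before grafting and climbed steeply on both sides of the graft. At day 1 it had 7.58, 10.2 and 6.07 normalized reads in the 3 scions and 2.92, 6.98 and 13.4 in the 3 rootstocks, against 1.74, 1.51 and 2.18 in intact plants. Every grafted library lay above every intact one, but on few reads, 28 in scions and 27 in rootstocks against 6 in intact plants. The log2 fold changes were 2.08 ± 0.66 in scions (adjusted p = 0.0074, edgeR) and 2.07 ± 0.66 in rootstocks (adjusted p = 0.0068). The rootstock call rested on the library with 13.4 normalized reads, and without rootstock replicate 3 the log2 fold change was 1.42 (adjusted p = 0.118). With all libraries thinned to the smallest total in 1 random draw, neither day-1 call held (edgeR, adjusted p = 0.0557 in scions and 0.0504 in rootstocks). Other draws were not made.

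By day 3 the difference was well clear of these limits. PaLRP1-like had 42.7, 55.5 and 52.6 normalized reads in scions and 98.6, 107.7 and 93.7 in rootstocks, against 1.06, 3.27 and 1.03 in intact plants. All 6 grafted libraries were more than 10 times above the highest intact library, and the rootstocks stood above the scions. Since the intact plants had 4 reads in all, the ratios are given with exact binomial 95% intervals that cover counting error only. They were 32.6 (12.5 to 121) in scions and 63.7 (24.6 to 235) in rootstocks, with fitted log2 fold changes of 4.92 ± 0.52 (adjusted p = 2.4e-10, edgeR) and 5.89 ± 0.47 (adjusted p = 8.8e-14).

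Between days 1 and 3 the excess over intact plants grew in rootstocks by 3.82 ± 1.16 log2 units (adjusted p = 0.0117, edgeR), as a test of that change called in 14% of the genes in this direction. With thinned libraries it was not called (3.30, adjusted p = 0.128). In scions the same test gave 2.84 ± 1.14 and missed the threshold (adjusted p = 0.0848), while DESeq2 passed it (adjusted p = 0.0385). Within the grafted tissues alone, PaLRP1-like rose from day 1 to day 3 in scions by 2.69 ± 0.35 (adjusted p = 5.8e-08) and in rootstocks by 3.67 ± 0.32 (adjusted p = 1.7e-12), calls made for 5.62% and 8.83% of the genes.

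At days 7 and 14 PaLRP1-like was higher still. Scions had 101.3, 110.7 and 103.5 normalized reads at day 7 and rootstocks 115.1, 116 and 199.3, against 2.92, 4.14 and 3 in intact plants. At day 14 scions had 248, 233.6 and 275.1 and rootstocks 201.8, 199.6 and 271.4, against 12.8, 7.94 and 19 in intact plants. The groups were far apart at both days, and 1 rootstock library of day 7 stood well above the other two. Log2 fold changes were 4.96 ± 0.42 in scions and 5.38 ± 0.41 in rootstocks at day 7, and 4.28 ± 0.30 in scions and 4.10 ± 0.30 in rootstocks at day 14 (adjusted p of 1.1e-12, 1.4e-13, 4.8e-15 and 4.1e-14, edgeR). In scions the step to day 7 was 1.06 ± 0.24 (adjusted p = 0.0013) and the step to day 14 was 1.27 ± 0.21 (adjusted p = 6.3e-05), steps called for 2.58% and 1.92% of the genes. The step to day 7 fell just under the fold threshold without scion day 3 replicate 1 (0.96) or scion day 7 replicate 2 (0.99). In rootstocks neither step passed, at 0.51 ± 0.22 (adjusted p = 0.0927) and 0.66 ± 0.21 (adjusted p = 0.0221, under the fold threshold).

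The gap narrowed at day 28, when PaLRP1-like had come up in intact plants too. Scions had 222.8, 197.4 and 165.1 normalized reads and rootstocks 306.9, 274.5 and 319.2, against 180.9, 65.5 and 114.9 in intact plants. The scion and intact ranges overlapped and the rootstock and intact ranges did not. The rootstock difference was called (1.33 ± 0.21, adjusted p = 7.0e-06, edgeR), and the scion difference was under the fold threshold (0.71 ± 0.21, adjusted p = 0.0091). Without intact replicate 1, the highest of the 3, the scion difference was called too (1.12, adjusted p = 1.1e-04).

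In intact plants PaLRP1-like had 1 read in each library of day 0 and 6, 4 and 7 reads in all at days 1, 3 and 7. None of these days differed from day 0 by the test (log2 fold changes of 0.51, 0.36 and 1.38, adjusted p of 0.886, 0.9 and 0.304). It was called higher at day 14 (3.32 ± 0.74, adjusted p = 3.4e-04, edgeR) and at day 28 (6.51 ± 0.48, adjusted p = 1.3e-14), as were 7.83% and 9.87% of the genes. With 3 reads at day 0, the ratio of day 28 to day 0 was 98.9, with an exact binomial 95% interval of 33.6 to 482. The day-28 libraries of intact plants spread over 65.5 to 180.9, the widest group of this gene above 20 normalized reads (coefficient of variation 48.1%).

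From day 14 to day 28 the excess of grafts over intact plants shrank by 3.57 ± 0.38 log2 units in scions (log2 change −3.57, adjusted p = 2.6e-08, edgeR) and by 2.78 ± 0.38 in rootstocks (log2 change −2.78, adjusted p = 5.0e-06). This test called 7.18% and 5.07% of the genes in that direction. Over the same days the change within grafts did not pass the test, at −0.38 ± 0.21 in scions (adjusted p = 0.197) and 0.41 ± 0.21 in rootstocks (adjusted p = 0.162), and the intact level rose by 3.19 ± 0.31 (adjusted p = 1.0e-08), a rise called for 1.76% of the genes. The preceding step of intact plants, from day 7 to day 14, was called as well (1.94 ± 0.63, adjusted p = 0.0345, with 1.73% of the genes), but not in 5 of the 6 fits that left out a library, where it ran from 1.56 to 2.23. At day 28 the intact mean was 120.4 ± 57.9, against 13.3 ± 5.55 at day 14.

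PaWIP4-like was present in every library and rose within a day of grafting, most in the scion. At day 1 it had 306.5, 296.9 and 387.8 normalized reads in scions and 129.5, 116.9 and 116.6 in rootstocks, against 47.8, 51.3 and 29.4 in intact plants. The 3 groups did not overlap. The log2 fold change was 2.89 ± 0.16 in scions (adjusted p = 8.7e-19, edgeR) and 1.43 ± 0.17 in rootstocks (adjusted p = 1.5e-09).

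At day 3 PaWIP4-like had 234.7, 276.8 and 221.6 normalized reads in scions and 225.3, 173.9 and 211.4 in rootstocks, against 76.2, 81.8 and 75.3 in intact plants. At day 7 it had 335.3, 348.7 and 328.2 in scions and 388.6, 436.3 and 408.5 in rootstocks, against 191.5, 122.8 and 163.6 in intact plants. Every grafted library again lay above every intact library of its day. The scion difference was 1.69 ± 0.16 at day 3 and 1.13 ± 0.14 at day 7 (adjusted p of 8.5e-12 and 1.8e-08, edgeR), and the rootstock difference was 1.42 ± 0.16 and 1.39 ± 0.14 (adjusted p of 6.0e-10 and 3.1e-10). The scion call of day 7 fell just under the fold threshold without intact replicate 2 (0.97).

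At day 14 PaWIP4-like had 505.5, 454.4 and 620.4 normalized reads in scions and 484.7, 479.7 and 549.7 in rootstocks, against 180.9, 225.7 and 231.6 in intact plants. At day 28 it had 687.5, 671 and 630.5 in scions and 629.9, 663.4 and 604.3 in rootstocks, against 384, 306.8 and 365.5 in intact plants. No grafted library overlapped with an intact one. The differences were 1.34 ± 0.14 in scions and 1.27 ± 0.14 in rootstocks at day 14 (adjusted p of 9.1e-11 and 6.5e-10, edgeR). At day 28 they were 0.92 ± 0.13 and 0.85 ± 0.13 (adjusted p of 3.3e-07 and 2.9e-06), under the fold threshold.

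**Figure D2:**
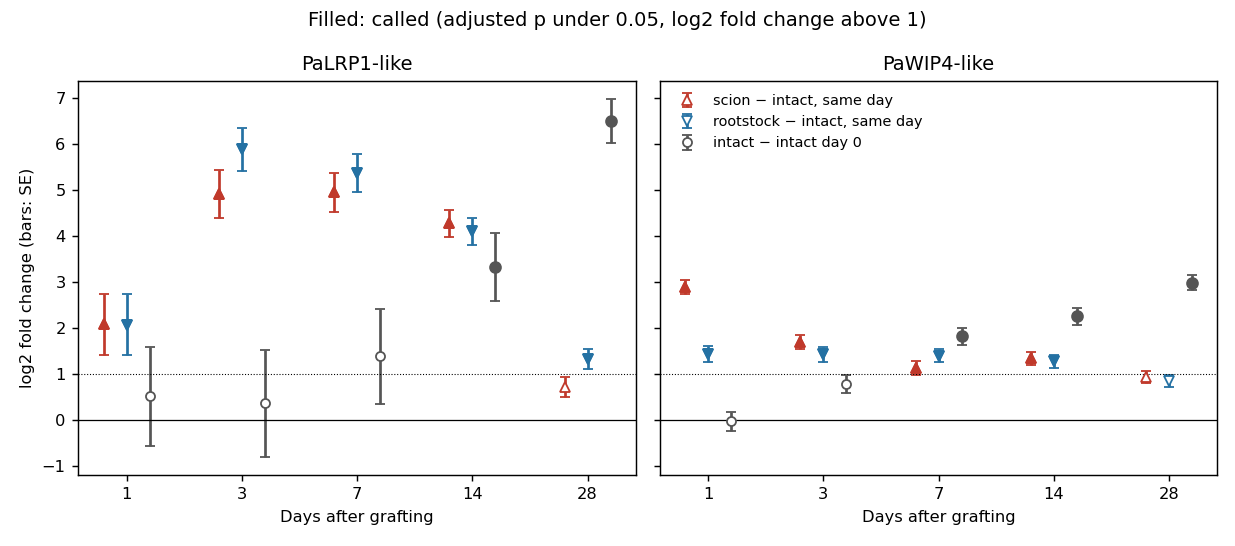
Log2 fold changes (y axis) of PaLRP1-like (left) and PaWIP4-like (right) by day (x axis): scion against intact (red), rootstock against intact (blue) and intact plants against day 0 (grey), with bars of 1 SE; filled symbols were called. The grafted–intact difference of PaLRP1-like was highest at 5.89 in rootstocks of day 3 and was down to 0.71 and 1.33 at day 28. PaLRP1-like in intact plants of day 28 lay higher, at 6.51 against day 0. The change of its rootstock difference from day 3 to day 7 did not pass the test (−0.51, adjusted p = 0.754, edgeR). The grafted–intact difference of PaWIP4-like was highest in scions of day 1 at 2.89 and lay between 0.85 and 1.69 in all other grafted groups. PaWIP4-like in intact plants of day 28 lay at 2.99 against day 0.

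PaWIP4-like also increased with time in intact plants. Group means were 44.7 ± 11, 42.9 ± 11.8, 77.8 ± 3.5, 159.3 ± 34.6, 212.7 ± 27.8 and 352 ± 40.3 normalized reads at days 0, 1, 3, 7, 14 and 28. Against day 0 it was called higher at day 7 (1.82 ± 0.18, adjusted p = 9.1e-11, edgeR), day 14 (2.25 ± 0.18, adjusted p = 8.5e-14) and day 28 (2.99 ± 0.17, adjusted p = 4.2e-18), where 6.81%, 7.83% and 9.87% of the genes were called higher. At day 3 the difference was under the fold threshold (0.79 ± 0.20, adjusted p = 0.0048), and at day 1 it was −0.03 ± 0.20 (adjusted p = 0.972). The step from day 3 to day 7 was the 1 step between neighbouring days called for this gene (1.03 ± 0.17, adjusted p = 8.2e-06, with 3.52% of the genes), and it was under the fold threshold without intact day 7 replicate 1 (0.87) or with thinned libraries (0.99). The range in intact plants of day 28 overlapped with those in scions of days 1 and 7.

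The scion excess of PaWIP4-like shrank after day 1 but stayed called up to day 14. From day 1 to day 3 the scion–intact difference fell by 1.20 ± 0.23 log2 units (log2 change −1.20, adjusted p = 1.8e-04, edgeR), a change called for 6.85% of the genes in that direction. The rootstock–intact difference of the same days changed by −0.01 ± 0.21 (adjusted p = 0.992). None of the other 6 day-to-day tests of the PaWIP4-like difference passed, with changes from −0.56 to 0.21. In scions themselves the level of day 3 was 0.38 ± 0.13 log2 units below that of day 1 (log2 fold change −0.38, adjusted p = 0.0272, under the fold threshold), while the intact level of day 3 was 0.82 ± 0.19 above day 1 (adjusted p = 0.0022).

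In the fit of all groups, scion against rootstock had an adjusted p under 0.05 at 1 early day per gene, in opposite directions. A fit with the replicate as a block, given below, added later days. PaWIP4-like was 2.75-fold higher in scions than in rootstocks at day 1 (1.46 ± 0.14, adjusted p = 5.9e-11, edgeR), a call made for 6.37% of the genes, and its libraries did not overlap, as for 17.5%. PaLRP1-like was lower in scions than in rootstocks at day 3 (−0.97 ± 0.24, adjusted p = 0.0017, just under the fold threshold), with no overlap of libraries, as for 21.2% of the genes. It was past that threshold without scion replicate 2 or 3, without rootstock replicate 3, or with thinned libraries. At day 1 PaLRP1-like differed by 0.01 ± 0.48 (adjusted p = 0.999).

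From day 7 on, no scion–rootstock difference was called for either gene. For PaLRP1-like the log2 differences were −0.42 ± 0.22 at day 7, 0.18 ± 0.21 at day 14 and −0.61 ± 0.21 at day 28 (adjusted p of 0.146, 0.709 and 0.213). For PaWIP4-like they were 0.27 ± 0.14 at day 3, −0.27 ± 0.13 at day 7, 0.07 ± 0.13 at day 14 and 0.07 ± 0.13 at day 28 (adjusted p of 0.149, 0.123, 0.841 and 0.938). At days 7, 14 and 28 the scion and rootstock libraries of the same replicate number varied together, and a fit of the day alone with the replicate as a block gave an adjusted p under 0.05 for 3 of these differences, all below the fold threshold. They were PaLRP1-like at day 7 (−0.42, adjusted p = 0.0355) and day 28 (−0.63, adjusted p = 0.0034) and PaWIP4-like at day 7 (−0.29, adjusted p = 0.0053), each lower in scions. In these 3 cases all scion libraries lay below all rootstock libraries, as for 20.7% of the genes at day 7 and 7.46% at day 28. Ranges overlapped for both genes at day 14 and for PaWIP4-like at day 28.

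**Figure D3:**
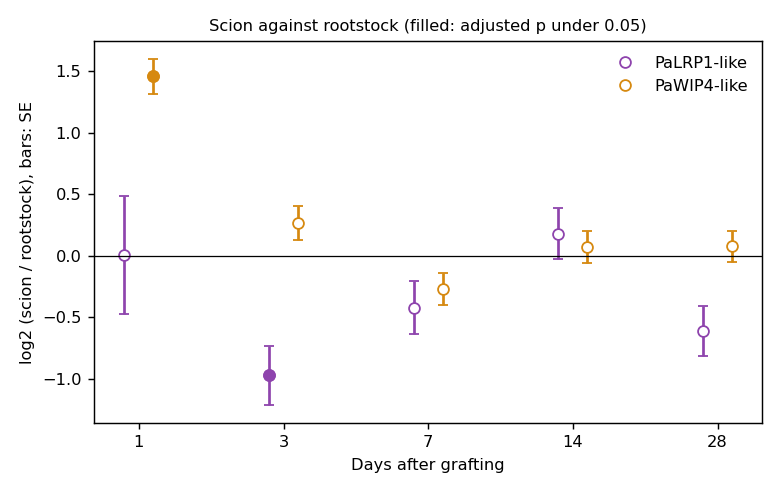
Log2 ratio of scion to rootstock (y axis) by day (x axis) for PaLRP1-like (purple) and PaWIP4-like (orange), with bars of 1 SE. Filled points had an adjusted p under 0.05 in the fit of all groups. PaWIP4-like stood at 1.46 on day 1 and PaLRP1-like at −0.97 on day 3, and the remaining 8 points lay between −0.61 and 0.27.

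Ordered by level, the 16 groups of PaLRP1-like ran from 1.23 ± 0.24 normalized reads in intact plants of day 0 to 300.2 ± 23.1 in rootstocks of day 28. The 4 lowest were the intact plants of days 0, 3, 1 and 7, followed by both grafted groups of day 1 (7.78 ± 5.30 in rootstocks and 7.96 ± 2.11 in scions) and intact plants of day 14 (13.3 ± 5.55), whose ranges overlapped. Scions of day 3 (50.3 ± 6.75) overlapped with no neighbour, and from rootstocks of day 3 upward every group overlapped with the next. For PaWIP4-like the order ran from 42.9 ± 11.8 in intact plants of day 1 to 663 ± 29.3 in scions of day 28. Intact plants of days 1, 0 and 3 were its 3 lowest groups, and the 4 highest were the grafted groups of days 14 and 28, with overlap within each day and between scions of day 14 and rootstocks of day 28.

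The pair had similar but not identical patterns over the libraries. Pearson's r of their log2 CPM (counts scaled to library size) was 0.876 over the 48 libraries and 0.891 over the 16 group means, values that carry the shared course of grafting and age. It was 0.646 within the 15 scions, 0.899 within the 15 rootstocks and 0.832 within the 18 intact libraries. Deviations of the libraries from their own group means had an r of 0.0037. PaWIP4-like ranked 123rd of 38436 genes in likeness to PaLRP1-like, and PaLRP1-like ranked 65th for PaWIP4-like. The ranks depended on the measure, at 31 and 16 by Spearman's rho over the 48 libraries, 204 and 128 over the group means, and 2791 and 2994 by Pearson's r over the 30 grafted libraries.

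**Figure D4:**
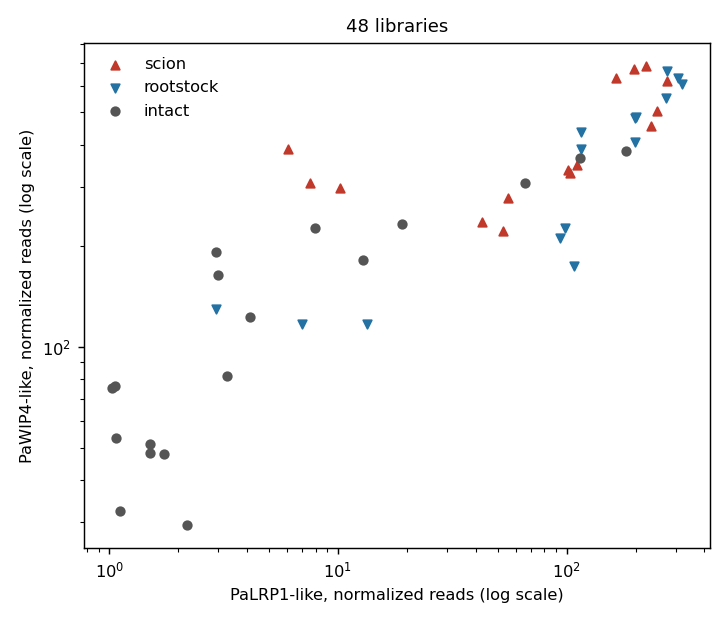
PaWIP4-like (y axis) against PaLRP1-like (x axis), both in normalized reads on log scales, with 1 point for each of the 48 libraries (scion red, rootstock blue, intact grey). The 3 scion libraries of day 1 lie apart, at 297 to 388 normalized reads of PaWIP4-like and 6.07 to 10.2 of PaLRP1-like, while the 15 intact libraries up to day 14 span 29.4 to 232 of PaWIP4-like and 1.03 to 19 of PaLRP1-like.

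The genes most like PaLRP1-like over the 48 libraries were MA_10433403g0010, annotated as a cytochrome P450 of the CYP736A12 type (r = 0.966), MA_84935g0010, a Myb family transcription factor (r = 0.962), and MA_5905665g0010, MA_406287g0010 and MA_6711351g0010, which have no annotation (r = 0.964, 0.962 and 0.959). They were called higher in 10, 9, 7, 10 and 6 of the 10 grafted–intact comparisons. Genes chosen for likeness to an often-called gene are likely to be called often too. These counts, and those for PaWIP4-like below, are therefore no independent evidence. The genes most like PaWIP4-like were MA_3940g0010, a bHLH68-like transcription factor (r = 0.943), MA_10433174g0020, a lectin receptor-like kinase (r = 0.926), and the unannotated MA_501220g0010, MA_580412g0010 and MA_346860g0010 (r = 0.953, 0.947 and 0.933), called higher in 6, 8, 10, 10 and 6 of the 10. The genes running most opposite were MA_9687017g0010 and MA_86597g0010 for PaLRP1-like (r = −0.948 and −0.947) and MA_99015g0010 and MA_36542g0010 for PaWIP4-like (r = −0.942 and −0.930). The 5 nearest genes of the pair shared 0 members, and the 100 nearest shared 32.

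MA_4130g0010, the other gene annotated as WIP2, was also higher in scions than in rootstocks. It averaged 187 ± 10.0 normalized reads in scions and 4.78 ± 1.38 in rootstocks of day 1, against 18.2 ± 6.8 in intact plants. It was called higher in all 5 scion comparisons (log2 fold changes of 2.58 to 3.96), lower in rootstocks of day 1 (−1.96) and higher in rootstocks of days 7, 14 and 28 (1.85, 2.05 and 2.54). Scions were above rootstocks at days 1, 3 and 7 by 5.27, 3.85 and 2.11 log2 units. Scion group means of MA_4130g0010 stayed between 187 and 213, while rootstocks came up to 197 ± 28.8 at day 28.

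Other gene groups from the study's supplementary tables put the pair in context. Those tables were held only in part and many of their genes were chosen by the study on these libraries, so the counts below are no independent evidence of direction. They stand against all genes tested, of which 7.27% to 13.8% were called higher in a grafted–intact comparison. Genes called lower made up 11.3%, 7.56%, 7.23%, 7.47% and 2.95% in scions of the 5 days, and 16.5%, 10.1%, 3.93%, 4.77% and 1.96% in rootstocks. The other WIP, AINTEGUMENTA (ANT), BABY BOOM (BBM), WOX and scarecrow genes, regulators of meristems and organ formation, numbered 8, all tested. Between 1 and 4 of the 8 were called higher in each grafted–intact comparison and up to 3 lower, with medians of −0.15 to 1.14. A single gene of 8 is close to the share of all genes. PaWOX13-like (MA_116716g0010), a homeobox gene whose Arabidopsis relative acts in callus and wound healing, had the largest mean (2.68, called higher in 8 of 10). The other WOX13-like gene of the 8 had a mean of 0.41, higher in 2 and lower in 1. MA_113625g0010, annotated as BBM, had the smallest mean (−0.60, lower in 2 of 10). The median log2 fold change of all genes tested lay between −0.05 and 0.07 in the 10 comparisons.

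Several LOB domain genes act in lateral root formation downstream of auxin in Arabidopsis. Of 20 listed, 18 were tested, and 10 to 16 of them were called higher in scions and 8 to 14 in rootstocks at each day, with at most 2 lower. Their medians ran from 1.57 to 3.69, and from 1.19 to 3.08 with genes that had no read in a group set to their bound against a floor of 3 reads over the group. MA_10434193g0010, a LOB domain 1-like gene, was called in all 10 comparisons, with group means of 7.28 to 131 normalized reads in scions and 12.6 to 117 in rootstocks, against 0 to 0.714 in intact plants. MA_170369g0010 (LOB domain 1-like) and MA_75731g0010 (LOB domain 40-like) were called in 8 and 10, and MA_9412105g0010 (LOB domain 15) in 5 higher and 3 lower. In intact plants 6 of the 18 were higher at day 28 than at day 0 and 3 lower, against 9.87% and 8.06% of all genes.

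Genes of auxin signalling and transport were mixed. Of 17 listed, 12 were tested, and 1 or 2 were called higher in each grafted–intact comparison, where 1 of 12 is close to the share of all genes. In rootstocks 6 of the 12 were lower at day 1 and 4 at day 3, against 16.5% and 10.1% of all genes. Medians there were −1.67 and −0.57. In scions 2 were lower at day 1 and 1 each at days 3 and 14. Intact plants of day 28 had 6 of the 12 lower than at day 0 and 0 higher. The shares over all genes were 8.06% and 9.87%. MA_131574g0010, an auxin influx carrier by annotation (auxin transporter 2), was called higher in 5 of 10, MA_10427998g0010, annotated as the auxin synthesis enzyme YUCCA5, in 4, and MA_10293595g0010 (auxin transporter 4) in 4. MA_10431093g0030, annotated as the auxin response repressor IAA8, was lower in 5 of 10, with −3.64 ± 0.16 in rootstocks of day 1 (adjusted p = 4.6e-21, edgeR).

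**Figure D5:**
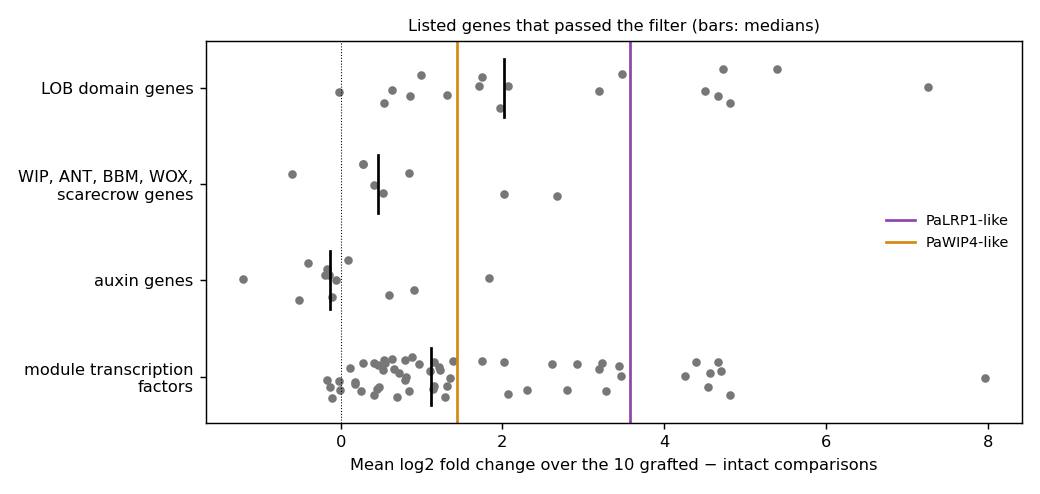
Mean log2 fold change over the 10 grafted–intact comparisons (x axis) for each tested gene of 4 lists (grey points, with vertical jitter only for visibility; black bars are medians), with the 2 vertical lines at PaLRP1-like (3.57) and PaWIP4-like (1.43). PaLRP1-like lies above all 4 medians and PaWIP4-like above all but that of the LOB domain genes. The 2 largest values belong to genes with intact groups at 0 reads and depend on the fit's prior count. Further points share this limit, such as MA_170369g0010 (5.40) and MA_84935g0010 (4.71).

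Of the other transcription factors in the module of both genes, 62 were listed and 58 tested. Several of them, such as MA_75731g0010 and MA_4130g0010, are also in the lists above and are counted again here. In scions 25 to 43 of them were called higher at each day and in rootstocks 12 to 37, with medians of 0.88 to 1.55 in scions (0.77 to 1.55 with genes without a read in a group at their bound) and −0.01 to 1.27 in rootstocks. At day 1, 6 of the 58 were lower in scions, about the 11.3% of all genes, and 17 in rootstocks, against 16.5% of all genes. MA_10431811g0010, annotated as a FER-like iron deficiency-induced factor, was called in all 10, with group means of 45.6 to 383 normalized reads in scions and 13.7 to 440 in rootstocks, against 0 to 1.72 in intact plants. It had the largest mean change, followed by MA_75731g0010 and MA_84935g0010, and MA_10431317g0010, a B3 domain gene, had the smallest (−0.16). Of the other named hubs, PaMYB4-like (MA_316475g0010) and PaMYB123-like (MA_10048467g0010) were called higher in 8 of the 10 comparisons each, and the scarecrow-like PaPAT1-like (MA_10426489g0020) in 4, up to 1.54. PaMYB123-like averaged 4.00 to 123 normalized reads in scions and 1.13 to 191 in rootstocks, against 0.357 to 2.18 in intact plants. PaMYB4-like averaged 18.5 to 247 in scions and 23.03 to 216 in rootstocks, against 0.988 to 74.4 in intact plants. At day 1 none of these 3 was called in either tissue, with log2 fold changes from −0.12 to 2.01.

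Markers of the tissues at the junction were called in some grafted–intact comparisons as well, and not all in the same direction. The wound and callus gene PaWIND1-like (MA_98464g0010) was called higher in 7 of the 10 comparisons, with group means of 16.7 to 372 normalized reads in scions and 13.2 to 121 in rootstocks, against 2.87 to 16.5 in intact plants. The cell division gene PaCDKB2;2-like (MA_920994g0010) was called higher in 4, at days 7 and 14, and lower in 1. The phloem gene PaAPL-like (MA_201937g0010) was called higher in 4, all in scions. Of the xylem genes, PaVND4-like (MA_6777g0010) was lower in rootstocks of days 1 and 3, and PaPRX66-like (MA_10431507g0020) was higher in 7 and lower in 3, the day-1 comparisons among them. These 5 genes and PaWOX13-like were above 0 in every group mean, and their part in the levels of PaLRP1-like and PaWIP4-like was not tested. No marker of hypocotyl cortex or epidermis was at hand to check the label of the tissue.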

How the data were processed

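Poly(A) RNA of 48 samples was sequenced with a directional kit. The authors removed ribosomal reads, trimmed with fastp, mapped to the Picea abies genome (STAR) and counted reads by strand (HTSeq); versions are not given in the sample labels. The deposited values are unscaled counts; of 70736 gene models, 15492 had no read. All 48 columns were used.

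Tests used edgeR 4.0.16 in R 4.3.3: filterByExpr (minimum count of 10, 38436 genes kept), TMM scaling and 1 robust quasi-likelihood fit of the 16 groups, the groups and thresholds following the study's methods. P values were adjusted by the Benjamini–Hochberg method over all genes tested, and 40 comparisons were made per gene. Changes of a graft–intact difference between days were tested as interactions at an adjusted p under 0.05 with no fold threshold. SE was obtained by dividing the size of a log2 fold change by the root of its F, and is rough where reads are few. Normalized reads use DESeq2 1.42.0 size factors. Similarity used log2 CPM with a prior count of 2. Medians of lists are also given with genes without a read in a group at their bound, from a floor of 3 reads over the group. Code was tested on simulated data.

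Alternatives were DESeq2, RLE or library-size scaling, no filter or 1 CPM in 6 libraries, replicate block and fits of only the groups compared. Others were 1 random thinning to the smallest total and leaving out each library, the latter with the dispersion trend of the full fit kept. The numbers pair scion and rootstock samples at days 7, 14 and 28, by correlations of same-numbered deviations (0.136 to 0.413, from the data), and no other comparison. A block fit of scion and rootstock of 1 day was added after seeing the data.

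The genes, lists and comparisons were chosen with earlier results of these data known. Named genes are the pair, the 5 genes of highest and 2 of lowest correlation with each, the 3 of largest and 1 of smallest mean change of each list, the other WIP gene, the other hubs and the markers. Annotations come from the study's supplement. Depth limits PaLRP1-like in intact plants; exact binomial 95% intervals cover counting error only. Replicates are described as biologically independent pools.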

Additional observations from a re-analysis of the deposited data

Results flagged for a closer look

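Scion–rootstock tests, and tests of a change in a graft–intact difference, passed an adjusted p of 0.05 (edgeR, fit of all groups) in 6 cases. For PaLRP1-like, scion and rootstock differed at day 3 (−0.97, adjusted p = 0.0017, lower in all 3 scions). The excess of rootstocks over intact plants grew from day 1 to day 3 (3.82, adjusted p = 0.0117). The excess over intact plants shrank from day 14 to day 28 in scions (−3.57, adjusted p = 2.6e-08) and in rootstocks (−2.78, adjusted p = 5.0e-06).

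For PaWIP4-like, scion and rootstock differed at day 1 (1.46, adjusted p = 5.9e-11, higher in all 3 scions). The excess of scions over intact plants shrank from day 1 to day 3 (−1.20, adjusted p = 1.8e-04). Groups of 3 libraries are too small for a test of single outlying libraries.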

How the results depend on the processing

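No alternative turned a direction of a called value. With thinned libraries, PaLRP1-like lost its day-1 calls in scions (2.08, adjusted p = 0.0557, edgeR) and rootstocks (2.10, adjusted p = 0.0504). The growth of its rootstock excess from day 1 to day 3 was lost too (3.30, adjusted p = 0.128), and its scion–rootstock difference of day 3 was called (−1.01). Thinning was 1 random draw, and the filter, scaling and spread were fitted again on it. Between neighbouring days, thinning lost 2 calls of the pair and gained 1. The growth of its scion excess from day 1 to day 3 passed with DESeq2 (2.81, adjusted p = 0.0385) and with only the groups compared (2.80, adjusted p = 0.0328). The shrinking of the PaWIP4-like scion excess from day 14 to day 28 passed with library-size scaling (−0.55, adjusted p = 0.0413) and thinning (−0.52, adjusted p = 0.0434), not in the fit reported (−0.42, adjusted p = 0.142); the cause was not tested.

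Leaving out 1 library gave 0.41 to 1.12 for PaLRP1-like in scions of day 28 against intact plants, 1.42 to 2.43 in rootstocks of day 1, and −1.05 to −0.87 for scion against rootstock at day 3. It gave 0.97 to 1.29 for PaWIP4-like in scions of day 7 and −0.73 to −0.40 for the change of its scion excess from day 3 to day 7, which passed without intact day 7 replicate 2 (adjusted p = 0.0209). The PaLRP1-like rise of intact plants from day 7 to day 14 (1.94, adjusted p = 0.0345) lost its call in 5 of 6 such fits, and the PaWIP4-like step of rootstocks from day 3 to day 7 (1.00) lay on the fold threshold, just under it in the fit reported and just over it with DESeq2, RLE scaling, the stricter filter, only the groups compared and the replicate block.

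With the replicate block in the fit of all groups, that step was the 1 call that changed, and no value moved by more than 0.0336 (scion against rootstock of day 1 for PaWIP4-like: 1.46). Replicate numbers paired only scions and rootstocks of days 7, 14 and 28, so this block is a weak check elsewhere. Fits of only the groups compared could not be made for PaLRP1-like in 10 comparisons of few reads. The count of genes called for the day 14 to day 28 change in rootstocks was 3625, and 2286 with only the groups compared. The count for scion against rootstock at day 28 was 66, and 106 with DESeq2, 264 with the block of that day, and 12 to 127 without 1 library. In either direction, the count for intact plants of day 28 against day 14 was 889, and 368 with only the groups compared, 508 without intact day 14 replicate 2 or 519 without intact day 28 replicate 1. For day 14 against day 7 it was 1054, and 448 with only the groups compared or 654 without intact day 7 replicate 2. Of the 5 genes nearest each member, 2 were also among the 5 by Spearman's rho for either gene.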
